A study of Arabidopsis thaliana with 12 samples.

Results

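The response of wild-type (WT) Arabidopsis thaliana leaves to 30 min of heat stress (HS) was described here across all genes and gene families, from 6 of the 12 columns of one table of normalized FPKM values (fragments mapped to a locus, scaled by its transcript length and by the size of the library). The 6 columns were taken by their names, 3 of WT plants under HS and 3 of WT plants under non-stress (NS) conditions, and no measured value entered that choice. HS plants were 5-week-old plants of the accession Col-0 that were held at 37 °C for 30 min, with the humidity raised so that the vapour pressure deficit stayed as it was, and were harvested at the end of the stress. NS plants were Col-0 plants of the same age that stayed at the growth temperature of 23 °C. Neither group carried a transgene. The study asked how the transcription factor HSFA1b shapes gene expression with and without HS, and the remaining 6 columns came from NS and HS plants of one line, 35S:HSFA1b, in which the constitutive 35S promoter drives an HSFA1b fusion.

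Each WT group had 3 libraries. Nothing in the sources used here says how many plants went into each, so p-values rest on the spread between libraries. The main fit took in the NS columns of the transgenic line beside the 6 WT columns. Its SEs and p-values therefore include the spread of those NS columns and not that of the WT libraries alone. Of the 33557 loci in the table, 17710 averaged at least 1 FPKM over the columns fitted and were tested with limma, and a gene at or under an adjusted p of 0.05 (Benjamini-Hochberg) was called a differentially expressed gene (DEG). Counts of a gene list are of the members that passed this minimum, which in some lists were few, such as 16 of 27 flavonoid loci. Fold changes are on the scale of log2(FPKM + 0.01), as HS minus NS. The sequencing depth of each library is unknown from FPKM. The step between low values was estimated relative to WT_NS_0, as the most frequent ratio over genes under 0.4 FPKM in both columns. It was 1.12, 1.12 and 1.25 in the HS columns and, with WT_NS_0 set to 1.00, 0.973 and 0.747 in the other NS columns. Outside WT_NS_0 that ratio held for only 8.95% to 20.4% of those genes, so the estimate is weak. In bulk leaf RNA, fewer cells of a type and less RNA per cell cannot be told apart.

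Leaf genes were abundant in all 6 columns. RBCS1A, a small subunit of Rubisco, stood at 21029, 20112 and 15007 FPKM in the HS columns, against 17139, 19600 and 21754 FPKM in the NS columns, and was not a DEG. The floral regulators AP1 and AG, the root aquaporin TIP2;3 and the seed storage gene CRA1 stayed under 0.5 FPKM in every WT column. The root and hypocotyl gene PYK10 was detected at 8.80 to 15.8 FPKM in both groups.

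One column in each group stood apart for defence and calcium genes and for several other lists. The column WT_NS_0 was the highest NS column, and WT_HS_2 the highest HS column, for all 19 of 19 pathogenesis-related and defence marker genes. Over all tested genes those columns were the highest of their group for 37.4% and 39.3%. The summed level of the 19 genes was 526, 1545 and 2849 FPKM in the HS columns and 1521, 155 and 201 FPKM in the NS columns, so one NS column lay above the lowest HS column. Results that rest on these libraries are given with and without them.

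The heat shock response is a switch in gene expression that cells make when proteins begin to unfold. In plants, class A heat shock factors bind heat shock elements (HSEs), inverted repeats of the unit GAA, and activate chaperones that refold or hold other proteins. Unfolding in the endoplasmic reticulum (ER) is sensed separately and activates ER chaperones, in the unfolded protein response (UPR), and proteins that cannot be refolded are tagged with ubiquitin and degraded by the 26S proteasome. Heat also makes membranes more fluid and raises cytosolic calcium, and leaves respond to it through the hormones abscisic acid, jasmonate and ethylene.

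Of the genes tested, 7876 were DEGs (44.5%), 23.7% up-regulated and 20.8% down-regulated, and these shares are the background for every group below. A fit of the 6 WT columns alone called 3617 of 17627 genes up-regulated (20.5%) and 3061 down-regulated (17.4%). After quantile normalization, which gives all columns the same distribution of values, 2822 genes were up-regulated and 4758 down-regulated, and the tested genes had a median log2 fold change of -0.12, against 0.02 in the values as deposited. Counts of a group under that scaling are given where they differ by more than 1.5 times and by 2 genes or more. The largest rises outside the heat shock protein families included co-chaperones and genes with no chaperone role. BAG6, a calmodulin-binding co-chaperone, stood at 1332, 1172 and 1809 FPKM in the HS columns and at 1.65, 1.32 and 1.18 FPKM in the NS columns, with a log2 fold change of 10 ± 0.18 (SE, n = 3 each; adjusted p = 4.3e-09). Hop3, which links HSP70 to HSP90, stood at 2223, 2066 and 2842 FPKM in the HS columns, against 4.32, 2.72 and 2.89 FPKM in the NS columns (log2 fold change 9.50 ± 0.18, adjusted p = 6.3e-09). AT1G03070, annotated in the Bax inhibitor-1 family of cell death suppressors, stood at 611, 589 and 1107 FPKM in the HS columns and at 1.04, 1.02 and 0.910 FPKM in the NS columns (9.53 ± 0.24, adjusted p = 2.7e-08). All HS columns of these genes lay far above all NS columns, and the spread within each group was small beside that gap. AT5G25450 carries the annotation of the 14 kDa subunit of a mitochondrial ubiquinol oxidase and stood at 765, 835 and 1251 FPKM in the HS columns, against 2.02, 0.562 and 0.514 FPKM in the NS columns. The J-domain gene AT1G71000 stood at 698, 685 and 986 FPKM in the HS columns and was listed at 0, 0 and 0.121 FPKM in the NS columns, so no fold is given.

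The promoters of 4 strongly up-regulated genes of different function are shown because each holds the 3-unit HSE, the 2-unit HSE, searched on both strands as GAANNTTC or TTCNNGAA, extended after 2 further bases by 1 more unit in the opposite orientation. These are the co-chaperone Hop3 (chr4:7341314-7341613), the J-domain gene AT1G71000 (chr1:26770128-26770427), the galactinol synthase GolS1 (chr2:19370429-19370728) and the splicing factor SR45a (chr1:2260138-2260437). All lie on the minus strand and are printed from the RefSeq sequence of the assembly TAIR10.1, from 250 bases before the annotated start to 50 bases after it, 5′ to 3′, with the matches in capitals.
Hop3: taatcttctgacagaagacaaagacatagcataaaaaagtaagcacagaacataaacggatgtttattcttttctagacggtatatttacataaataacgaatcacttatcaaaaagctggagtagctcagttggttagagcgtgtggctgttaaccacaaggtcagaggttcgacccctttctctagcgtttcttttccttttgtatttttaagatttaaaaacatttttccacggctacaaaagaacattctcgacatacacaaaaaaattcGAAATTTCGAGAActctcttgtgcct
AT1G71000: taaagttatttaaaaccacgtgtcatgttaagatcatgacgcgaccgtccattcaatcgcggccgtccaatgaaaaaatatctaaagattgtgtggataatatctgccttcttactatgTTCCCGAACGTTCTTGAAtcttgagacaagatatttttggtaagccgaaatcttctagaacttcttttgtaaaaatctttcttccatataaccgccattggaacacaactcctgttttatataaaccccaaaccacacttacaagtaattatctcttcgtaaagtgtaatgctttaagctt
GolS1: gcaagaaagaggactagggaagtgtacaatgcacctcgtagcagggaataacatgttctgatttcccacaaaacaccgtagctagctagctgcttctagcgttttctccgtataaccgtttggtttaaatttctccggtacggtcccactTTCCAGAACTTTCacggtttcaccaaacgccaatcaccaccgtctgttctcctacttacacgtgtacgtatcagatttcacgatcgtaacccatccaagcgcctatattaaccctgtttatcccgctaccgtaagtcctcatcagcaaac
SR45a: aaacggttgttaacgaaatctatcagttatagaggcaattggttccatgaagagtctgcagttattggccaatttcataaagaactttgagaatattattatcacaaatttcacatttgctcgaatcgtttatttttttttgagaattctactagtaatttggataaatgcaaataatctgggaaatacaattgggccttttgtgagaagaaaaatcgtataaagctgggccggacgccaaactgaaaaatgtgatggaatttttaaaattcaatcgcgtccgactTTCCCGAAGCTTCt
The match began 100 bases before the start in GolS1, 24 bases after it in Hop3 and 36 bases after it in SR45a, while AT1G71000 held 2 overlapping matches that began 131 and 126 bases before it. A match is a sequence only, and binding was not measured in the values used here.

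Genes of protein folding in the ER rose together. Of 27 tested genes 20 were up-regulated (74.1%) and none down-regulated, with a median log2 fold change of 2.15, against 0.02 over all tested genes. DER1, a derlin that takes part in export of misfolded proteins from the ER, stood at 380, 536 and 844 FPKM in the HS columns and at 36.2, 26.7 and 26.9 FPKM in the NS columns (4.23 ± 0.25, adjusted p = 5.1e-06). The ER HSP70 BIP1 stood at 1040, 1603 and 2191 FPKM in the HS columns and at 206, 109 and 117 FPKM in the NS columns (3.48 ± 0.31, adjusted p = 6.5e-05). BIP2, which is 97.2% identical to BIP1 over 2122 aligned bases so that reads can be shared, had a log2 fold change of 3.55 ± 0.37. The J-domain protein of the ER lumen ATERDJ3A stood at 419, 431 and 623 FPKM in the HS columns, against 4.71, 0.916 and 1.65 FPKM in the NS columns (7.96 ± 0.49, adjusted p = 5.8e-06). WT_HS_2 was the highest HS column and WT_NS_0 the highest NS column in DER1, BIP1 and BIP2, and the groups did not overlap in any of the ER genes named.

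Genes of protein degradation rose by smaller amounts. Of 40 tested subunits of the 26S proteasome, 28 were up-regulated and 1 down-regulated, with a median of 0.45, and WT_HS_2 was the highest HS column in 34 of the 40. The regulatory subunit ATS9 stood at 307, 329 and 392 FPKM in the HS columns and at 93.9, 79.7 and 83.8 FPKM in the NS columns (2.00 ± 0.11, adjusted p = 2.5e-06), whereas the core subunit PAC1 stood at 142, 132 and 118 FPKM in the HS columns and 128, 126 and 131 FPKM in the NS columns and was not a DEG (adjusted p = 0.85), or fell by 0.37 on the log2 scale after quantile normalization (adjusted p = 0.015). The count of subunits depended on the scaling: after quantile normalization 12 were up-regulated and 3 down-regulated. All 5 polyubiquitin genes were up-regulated, among them UBQ10 at 3396, 3630 and 5507 FPKM in the HS columns, against 1281, 959 and 1134 FPKM in the NS columns (1.87 ± 0.24, adjusted p = 0.00044). WT_HS_2 was the highest HS column and WT_NS_0 the highest NS column in all 5. Without these 2 columns all 5 were still up-regulated, with a median of 1.10 against 1.35. Of 26 tested autophagy genes, 12 were up-regulated and 2 down-regulated, and of 21 U-box ubiquitin ligases 5 were up-regulated and 2 down-regulated, the share of rises in the ligases (23.8%) being that of all genes.

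The counts of rises and falls differed between co-chaperone families. Of 106 tested J-domain proteins, which hand substrates to HSP70, 35 were up-regulated and 19 down-regulated, and without WT_NS_2 12 were down-regulated. In this list the share of rises lay above the 23.7% of all genes, and the share of falls lay below the 20.8% of all genes. J3, a cytosolic member, stood at 1315, 1362 and 1795 FPKM in the HS columns and at 250, 237 and 236 FPKM in the NS columns (2.62 ± 0.13, adjusted p = 1.5e-06). Of 53 tested peptidyl-prolyl isomerases, which turn proline bonds during folding, 19 were up-regulated and 3 down-regulated (13 and 10 after quantile normalization). The FKBP isomerase AT5G48570 stood at 4099, 4245 and 5182 FPKM in the HS columns and at 17.8, 6.66 and 7.88 FPKM in the NS columns (8.84 ± 0.33, adjusted p = 2.4e-07). Another FKBP isomerase, ROF1, stood at 1344, 1283 and 1573 FPKM in the HS columns, against 61.8, 58.4 and 56.4 FPKM in the NS columns. Of 17 tested chaperonin subunits, which form folding chambers, 7 were up-regulated and none down-regulated, with Cpn60beta2 of the plastid chamber at 2035, 1976 and 2208 FPKM in the HS columns and 154, 175 and 161 FPKM in the NS columns (3.67 ± 0.10, adjusted p = 3e-08). Within the BAG family BAG6 rose while BAG1 and BAG3 fell, with log2 fold changes of -0.78 ± 0.15 and -0.83 ± 0.13.

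Proteases of plastids and mitochondria moved in both directions, with 17 of 39 tested members up-regulated and 10 down-regulated. The count of rises was 10 without WT_NS_1 and 10 without WT_HS_1, the count of falls was 6 without WT_NS_2, and after quantile normalization 9 rose and 13 fell. The mitochondrial FTSH protease ftsh4 stood at 259, 236 and 273 FPKM in the HS columns and at 50.9, 50.6 and 51.9 FPKM in the NS columns (2.32 ± 0.09, adjusted p = 2.3e-07). FTSH6, a plastid FTSH protease, stood at 6.26, 8.00 and 17.1 FPKM in the HS columns and was listed at 0 in every NS column.

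**Figure D1:**
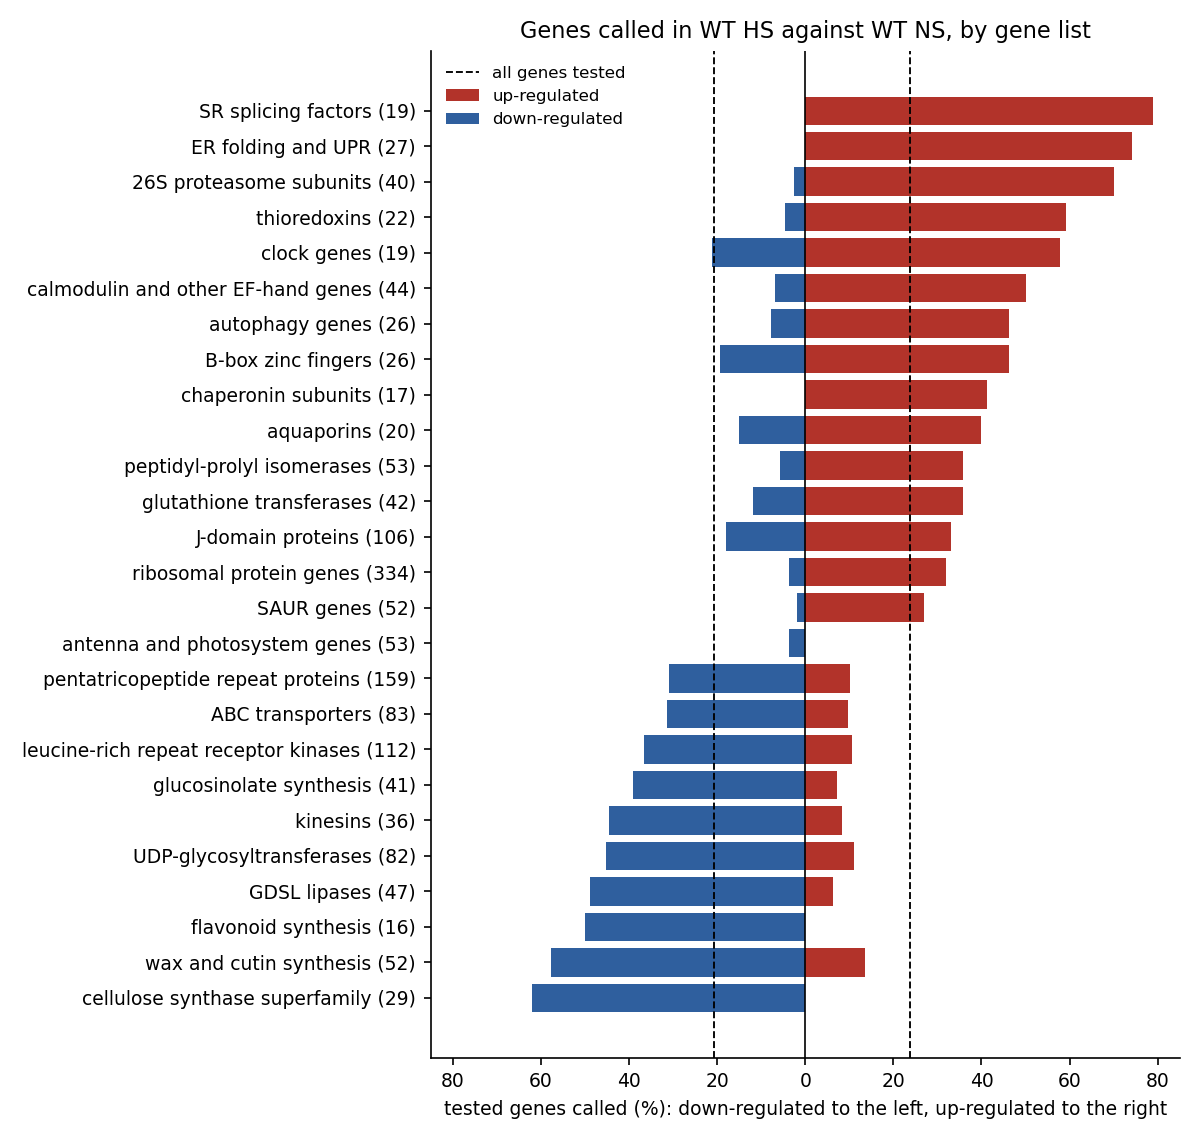
Percent of tested genes called up-regulated (red, to the right) and down-regulated (blue, to the left) in WT HS against WT NS for 26 gene lists, with the number tested beside each name. Dashed lines mark the shares over all genes, 23.7% up-regulated and 20.8% down-regulated. ER folding genes, splicing factors and proteasome subunits lie far to the right, and cellulose synthases, wax and cutin genes and flavonoid genes far to the left.

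Splicing factors of the SR family, which recognize exons, rose more often than all genes: 15 of 19 tested members were up-regulated and none down-regulated, with a median of 0.42, and 8 were up-regulated and 2 down-regulated after quantile normalization. SR45a, whose promoter is printed above, stood at 1116, 1080 and 1404 FPKM in the HS columns and at 40.2, 33.6 and 32.8 FPKM in the NS columns (5.07 ± 0.13, adjusted p = 2.7e-08). SR30 stood at 492, 503 and 616 FPKM in the HS columns, against 38.7, 34.2 and 35 FPKM in the NS columns (3.90 ± 0.11, adjusted p = 3.5e-08). Each of these values is a locus total and does not tell which splice form was present.

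Translation genes gave no common direction. Of 334 tested ribosomal protein genes, 107 were up-regulated and 12 down-regulated, with a median of 0.22, but after quantile normalization 22 were up-regulated and 78 down-regulated with a median of -0.20, so their direction rests on the scaling. Without WT_NS_2 or WT_HS_1 the up-regulated count was 65 or 70, and without WT_NS_2 the down-regulated count was 7. Of 55 tested initiation factors, 10 were up-regulated and 11 down-regulated, with 5 rises without WT_NS_1 and 6 without WT_HS_1. After quantile normalization 3 rose and 16 fell. The initiation factor gene AT5G54940, of the SUI1 family that selects the start codon, stood at 3375, 3709 and 5734 FPKM in the HS columns and at 538, 413 and 490 FPKM in the NS columns (3.12 ± 0.22, adjusted p = 1.6e-05).

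Pentatricopeptide repeat proteins, which process RNA in plastids and mitochondria, fell more often than all genes, with 49 of 159 tested members down-regulated and 16 up-regulated and a median of -0.26. The falls numbered 32 in a fit of the 6 WT columns alone, 30 without WT_NS_1, 29 without WT_NS_2 and 20 among members averaging at least 5 FPKM, and the rises numbered 7 to 10 without WT_NS_0, WT_NS_1, WT_NS_2 or WT_HS_0 and 9 after quantile normalization. Their levels were low, as in AT5G42310 with 19.9, 18 and 15.7 FPKM in the HS columns and 31.3, 33.9 and 36 FPKM in the NS columns (-0.92 ± 0.10, adjusted p = 0.00022). Among the genes of small RNA pathways, AGO2, an Argonaute of antiviral defence, stood at 51, 52.4 and 66.1 FPKM in the HS columns and at 8.56, 5.26 and 5.79 FPKM in the NS columns (3.13 ± 0.19, adjusted p = 4.5e-06). AGO1, the main Argonaute of microRNAs, had a log2 fold change of 0.84 ± 0.09 (adjusted p = 0.00015).

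Families that act on oxidants and toxic electrophiles differed in their counts. Of 22 tested thioredoxins, 13 were up-regulated and 1 down-regulated (7 and 3 after quantile normalization), and of 42 glutathione transferases 15 were up-regulated and 5 down-regulated (11 and 10 after quantile normalization). Without WT_NS_1 the rises of the second family numbered 9. Its falls numbered 3 without WT_NS_0 or WT_NS_2 and 3 in a fit of the 6 WT columns alone. Of 25 tested glutaredoxins 6 were up-regulated and 6 down-regulated (3 and 9 after quantile normalization), with 3 falls without WT_NS_1. Of 26 tested class III peroxidases, which are secreted to the wall or vacuole, 2 were up-regulated and 2 down-regulated, with 6 rises without WT_NS_0 and 4 falls without WT_HS_2. GSTU5 stood at 2973, 2849 and 3080 FPKM in the HS columns and at 340, 303 and 361 FPKM in the NS columns (3.15 ± 0.14, adjusted p = 6.5e-07). The cytosolic ascorbate peroxidase APX1 stood at 1956, 1957 and 2428 FPKM in the HS columns, against 796, 726 and 810 FPKM in the NS columns (1.44 ± 0.14, adjusted p = 0.0001). Of 11 tested genes of alternative respiration and uncoupling in mitochondria 5 were up-regulated, among them the alternative oxidase AOX1A with 84.6, 97.6 and 176 FPKM in the HS columns and 40.3, 33.4 and 46.8 FPKM in the NS columns (1.51 ± 0.26, adjusted p = 0.002).

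Genes of protective sugars and of water channels were also among the rises. GolS1, a galactinol synthase that starts the raffinose pathway, stood at 2662, 2726 and 3437 FPKM in the HS columns and at 70.4, 39.3 and 46.7 FPKM in the NS columns (5.85 ± 0.30, adjusted p = 1.8e-06), and GolS2 had a log2 fold change of 3.42 ± 0.38. BAM1, a plastid amylase that releases maltose from starch, stood at 301, 307 and 522 FPKM in the HS columns, against 74.1, 56.3 and 73.8 FPKM in the NS columns (2.43 ± 0.25, adjusted p = 0.00015). Of 20 tested aquaporins, channels for water, 8 were up-regulated and 3 down-regulated (6 and 9 after quantile normalization), with 1 fall without WT_NS_2, WT_HS_1 or WT_HS_2. Their falls also numbered 1 in a fit of the 6 WT columns alone. The tonoplast aquaporin GAMMA-TIP stood at 2518, 2081 and 1885 FPKM in the HS columns and at 598, 668 and 673 FPKM in the NS columns (1.73 ± 0.22, adjusted p = 0.00041), and PIP2B of the plasma membrane had a log2 fold change of 1.79 ± 0.13.

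**Figure D2:**
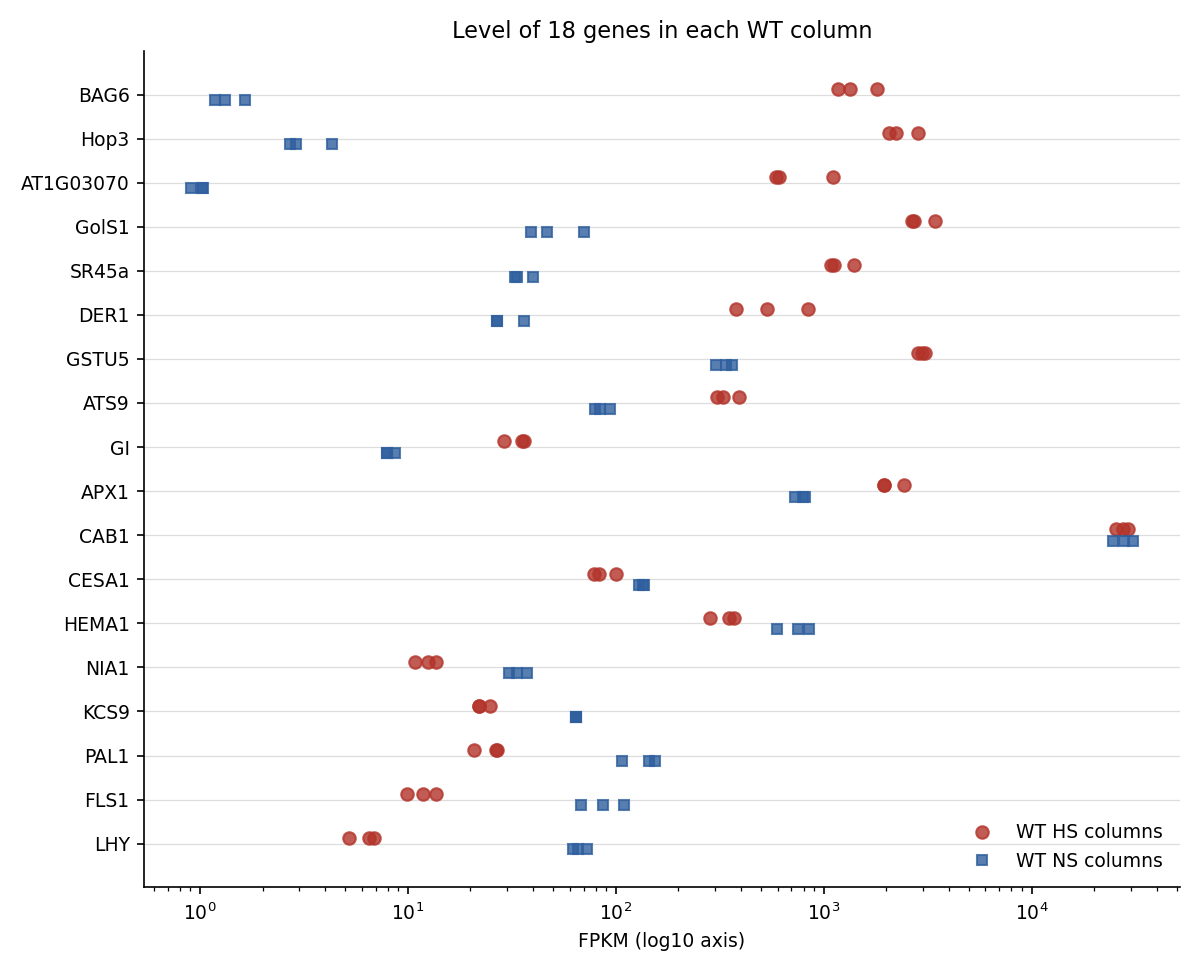
FPKM in each WT column on a log10 axis for 18 genes named in the text, with HS columns as red circles and NS columns as blue squares, one row per gene. In 10 rows all 3 HS columns lie right of all NS columns, in 7 rows all lie left, and in the row of CAB1 the groups overlap.

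Few photosynthesis genes were called. None of 53 tested antenna and photosystem genes was up-regulated and 2 were down-regulated in the limma fit, against the background of 44.5% DEGs. The groups did not overlap in 12 of the 53, against 54.4% of all genes. CAB1, a chlorophyll-binding antenna protein whose reads can be shared with CAB2 and CAB3, stood at 29252, 27474 and 25543 FPKM in the HS columns and at 24698, 27986 and 30644 FPKM in the NS columns (-0.02 ± 0.58). Its groups overlapped, and its SE takes in the spread of the 35S NS columns that were fitted with the WT columns. The antenna gene LHCB2.3 had the largest fall in FPKM among the DEGs. It stood at 1624, 1718 and 965 FPKM in the HS columns and 2476, 3151 and 3496 FPKM in the NS columns (-1.11 ± 0.29, adjusted p = 0.015, and 0.056 without WT_NS_2). A gene on the opposite strand overlaps 37.6% of it. After quantile normalization 33 of the 53 genes were down-regulated, and in a fit of the 6 WT columns alone 3 were up-regulated.

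Of 26 tested genes of the Calvin cycle and photorespiration, 9 were down-regulated and 1 up-regulated, with a median of -0.41 that was -1.07 after quantile normalization, when 22 fell. The falls numbered 4 without WT_NS_1, WT_HS_1 or WT_HS_2, 2 without WT_NS_2 and 5 without WT_NS_0 and WT_HS_2 together. GLDP1, a subunit of the photorespiratory glycine decarboxylase, stood at 783, 631 and 521 FPKM in the HS columns and at 1112, 1431 and 1520 FPKM in the NS columns (-1.08 ± 0.20, adjusted p = 0.0032). Of 28 tested genes of tetrapyrrole synthesis, which includes that of chlorophyll, 13 were up-regulated and 4 down-regulated (3 and 9 after quantile normalization). The rises numbered 5 in a fit of the 6 WT columns alone and 5 to 8 without WT_NS_0, WT_NS_1, WT_HS_0 or WT_HS_1. In chlorophyll synthesis the entry enzyme and a late enzyme moved apart. HEMA1, which makes the first committed precursor, stood at 370, 350 and 283 FPKM in the HS columns and at 598, 756 and 850 FPKM in the NS columns (-1.13 ± 0.15, adjusted p = 0.00066), while PORB, a protochlorophyllide oxidoreductase, stood at 312, 301 and 232 FPKM in the HS columns and at 103, 106 and 120 FPKM in the NS columns (1.36 ± 0.13, adjusted p = 9.3e-05).

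Genes of flavonoid synthesis, which makes pigments and ultraviolet screens, fell or did not pass the test. Of 16 tested genes 8 were down-regulated and none up-regulated, with a median of -1.40. WT_NS_2 was the highest NS column in 14 of the 16. The highest HS column was WT_HS_0 in 6, WT_HS_1 in 9 and WT_HS_2 in 1. PAL1, which opens the phenylpropanoid pathway, stood at 26.5, 26.8 and 20.9 FPKM in the HS columns and at 107, 145 and 155 FPKM in the NS columns (-2.44 ± 0.16, adjusted p = 1e-05). The chalcone synthase TT4 stood at 214, 197 and 165 FPKM in the HS columns, against 473, 524 and 690 FPKM in the NS columns (-1.54 ± 0.21, adjusted p = 0.00066). Further along the pathway the flavonol synthase FLS1 stood at 11.8, 13.7 and 9.90 FPKM in the HS columns and at 67.7, 87.3 and 109 FPKM in the NS columns (-2.88 ± 0.17, adjusted p = 5.4e-06). F3H also fell (-2.52 ± 0.22), though an annotated gene on the opposite strand overlaps 94.5% of its length and the strand of the reads is not given in the sources used here.

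Among genes of surface lipids more were down-regulated than up-regulated. Of 52 tested wax and cutin genes 30 were down-regulated and 7 up-regulated (33 and 4 after quantile normalization), with a median of -0.57, and of 47 GDSL lipases, some of which build cutin, 23 were down-regulated and 3 up-regulated, with a median of -0.46. Without WT_NS_1, WT_NS_2 or WT_HS_2 the rises of the lipases numbered 1, as in a fit of the 6 WT columns alone. KCS9, which lengthens fatty acids for wax, stood at 24.9, 22 and 22 FPKM in the HS columns and at 64.1, 64.7 and 64.1 FPKM in the NS columns (-1.49 ± 0.10, adjusted p = 9.9e-06). LTPG2, a lipid transfer protein of wax export, stood at 48, 39.2 and 29.4 FPKM in the HS columns, against 99.1, 116 and 110 FPKM in the NS columns (-1.50 ± 0.18, adjusted p = 0.0003). No tested fatty acid desaturase was up-regulated and 5 of 17 were down-regulated (9 after quantile normalization), including the plastid enzyme FAD5 at 175, 163 and 95.9 FPKM in the HS columns and 269, 367 and 386 FPKM in the NS columns (-1.27 ± 0.24, adjusted p = 0.0034).

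Nitrogen and sulphur metabolism also contained more falls than rises. Of 38 tested genes of nitrate assimilation and transport 19 were down-regulated and 6 up-regulated (20 and 3 after quantile normalization), and the falls numbered 11 without WT_NS_2. The nitrate reductase NIA1 stood at 12.5, 10.8 and 13.7 FPKM in the HS columns and at 30.7, 37.3 and 33.5 FPKM in the NS columns (-1.46 ± 0.12, adjusted p = 3e-05), and the nitrite reductase NIR1 had a log2 fold change of -1.32 ± 0.18. Transporters of the same list went the other way. The nitrate transporter NRT1:2 had a log2 fold change of 1.43 ± 0.09, and the peptide transporter PTR5 had one of 4.71 ± 0.33, with 14.2, 9.54 and 26.3 FPKM in the HS columns and 0.695, 0.535 and 0.504 FPKM in the NS columns. Of 41 tested glucosinolate genes, whose products deter insects, 16 were down-regulated and 3 up-regulated (19 and 1 after quantile normalization), with 10 falls without WT_NS_2, 6 rises without WT_HS_0 and 1 rise without WT_NS_1 or WT_HS_1. CYP83B1, which channels tryptophan-derived oximes into indole glucosinolates, stood at 48.3, 46.6 and 97 FPKM in the HS columns and at 269, 189 and 219 FPKM in the NS columns (-1.89 ± 0.27, adjusted p = 0.00091).

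Cell wall families had more falls than rises, in shares that differed between them. None of 29 tested members of the cellulose synthase superfamily was up-regulated and 18 were down-regulated, with a median of -0.63. CESA1, a catalytic subunit for the primary wall, stood at 100, 83.4 and 78.3 FPKM in the HS columns and at 130, 135 and 136 FPKM in the NS columns (-0.62 ± 0.10, adjusted p = 0.0017). Of 21 tested xyloglucan endotransglucosylases, which cut and rejoin hemicellulose, 11 were down-regulated and 3 up-regulated. XTH6 stood at 38, 28 and 12.3 FPKM in the HS columns, against 135, 159 and 160 FPKM in the NS columns (-2.68 ± 0.35, adjusted p = 0.00054). Within the same family TCH4, a touch-inducible member, stood at 36.1, 55.4 and 338 FPKM in the HS columns and at 12, 10.8 and 13.1 FPKM in the NS columns (2.88 ± 0.68, adjusted p = 0.0093), with most of its mean in WT_HS_2.

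None of 17 tested expansins, which loosen walls, was up-regulated and 8 were down-regulated, though only 4 without WT_NS_1 or WT_NS_2. Of 39 tested arabinogalactan proteins 19 were down-regulated and 6 up-regulated (21 and 3 after quantile normalization). FLA2 stood at 46, 31.7 and 24.6 FPKM in the HS columns and at 133, 158 and 158 FPKM in the NS columns (-2.18 ± 0.22, adjusted p = 0.00012), while AGP1 stood at 139, 251 and 1077 FPKM in the HS columns and at 22.2, 30.8 and 28.2 FPKM in the NS columns (3.64 ± 0.62, adjusted p = 0.002). Of 43 tested pectate lyases and polygalacturonases 15 were down-regulated and 5 up-regulated (19 and 3 after quantile normalization), with 9 falls without WT_NS_1, WT_NS_2 or WT_HS_1. Of 36 tested pectin methylesterases and their inhibitors 13 were down-regulated and 7 up-regulated (17 and 4 after quantile normalization), with 4 rises without WT_HS_0, and the share of rises (19.4%) was close to that of all genes.

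Several families of growth, transport and cell surface signalling also had more falls than rises, and others did not. Of 36 tested kinesins, motors on microtubules, 16 were down-regulated and 3 up-regulated, with KAC1, which moves chloroplasts along actin, at 23.7, 22.4 and 19.1 FPKM in the HS columns and 39.1, 45.6 and 46.4 FPKM in the NS columns (-1.01 ± 0.11, adjusted p = 0.00017). Of 112 tested leucine-rich repeat receptor kinases 41 were down-regulated and 12 up-regulated, with 6 rises without WT_NS_2. Among the falls AT1G51805 stood at 18.4, 18.5 and 18.9 FPKM in the HS columns, against 63.3, 60.2 and 63.3 FPKM in the NS columns (-1.74 ± 0.07, adjusted p = 4.8e-07). Of 46 tested wall-associated and lectin kinases 10 were up-regulated and 9 down-regulated, with 3 to 6 rises without WT_NS_1, WT_NS_2, WT_HS_1 or WT_HS_2. Their rises numbered 5 in a fit of the 6 WT columns alone. Of 30 tested cysteine-rich receptor kinases 3 were up-regulated and 4 down-regulated, with 11 rises without WT_NS_0, 7 without WT_HS_0 and 10 without WT_NS_0 and WT_HS_2 together. Of 82 tested UDP-glycosyltransferases, which attach sugars to hormones and phenolics, 37 were down-regulated and 9 up-regulated. Of 83 tested ABC transporters 26 were down-regulated and 8 up-regulated (37 and 3 after quantile normalization), with 5 rises without WT_NS_1 or WT_NS_2 and 5 in a fit of the 6 WT columns alone. Among cell cycle genes the falls were fewer: 12 of 41 tested cyclins and cyclin-dependent kinases were down-regulated, 29.3% against 20.8% of all genes, and 7 were down-regulated without WT_NS_1 or WT_NS_2.

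**Figure D3:**
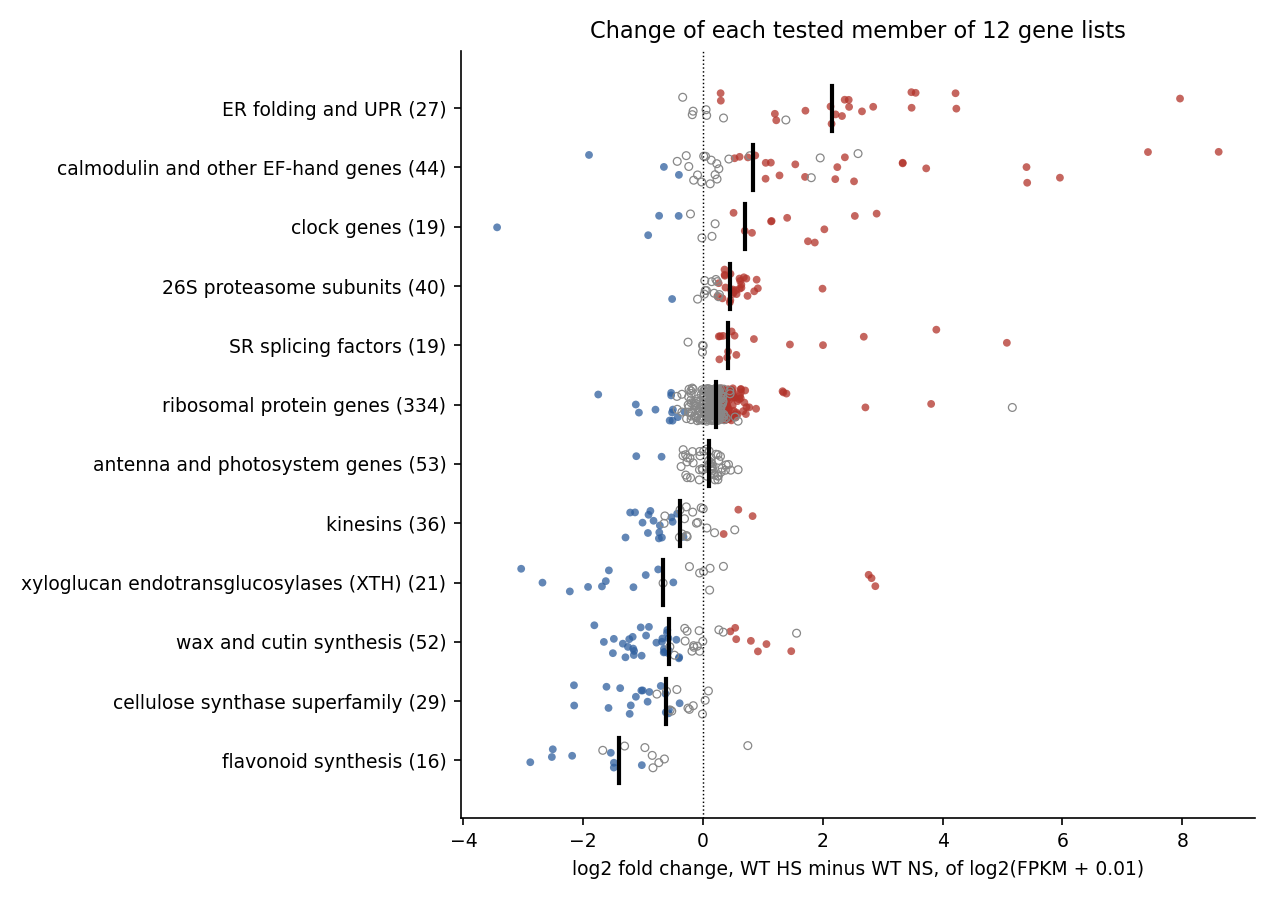
Log2 fold change, WT HS minus WT NS, of every tested member of 12 gene lists, one point per gene, filled where the gene was a DEG and open where it was not; black bars mark the median of each list. ER folding genes centre at 2.15, while wax and cutin, cellulose synthase and flavonoid genes centre at -0.57, -0.63 and -1.40.

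Calcium and hormone families differed in direction, and several of their rises were uneven across the HS columns. Of 44 tested calmodulins and other EF-hand proteins 22 were up-regulated and 3 down-regulated (18 and 7 after quantile normalization), with a median of 0.83, and WT_HS_2 was the highest HS column in 31 of the 44 (70.5%). AT1G21550, annotated as an EF-hand calcium-binding protein, stood at 547, 637 and 1050 FPKM in the HS columns and at 2.69, 1.06 and 2.12 FPKM in the NS columns (8.61 ± 0.34, adjusted p = 3.8e-07). CML37, a calmodulin-like protein, stood at 28.6, 113 and 407 FPKM in the HS columns, against 2.37, 0.239 and 0.424 FPKM in the NS columns (7.43 ± 1.02, adjusted p = 0.00067). The 2 genes differed in spread: the HS columns of CML37 were spread over more than 10-fold and those of AT1G21550 over less. Both genes were highest in WT_HS_2. Of 51 tested calcium-dependent kinases, CIPK kinases and their CBL calcium sensors 9 were up-regulated and 15 down-regulated, with 8 falls without WT_NS_2 and 14 rises without WT_HS_0.

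Of 10 tested JAZ repressors of jasmonate signalling 6 were up-regulated and 1 down-regulated. JAZ1 stood at 85.7, 103 and 292 FPKM in the HS columns and at 9.87, 4.19 and 5.15 FPKM in the NS columns (4.52 ± 0.53, adjusted p = 0.00031). ACS6, an enzyme of ethylene synthesis, stood at 22.2, 47.7 and 152 FPKM in the HS columns, against 9.69, 7.62 and 7.18 FPKM in the NS columns (2.75 ± 0.56, adjusted p = 0.0047). Of 7 tested clade A protein phosphatases 2C, which restrain abscisic acid signalling, 5 were up-regulated and none down-regulated, with ABI1 at 81.7, 85.7 and 113 FPKM in the HS columns and 37.4, 26.4 and 30.4 FPKM in the NS columns (1.57 ± 0.18, adjusted p = 0.00024). WT_HS_2 was the highest HS column and WT_NS_0 the highest NS column in all 7 of these phosphatases. CYP707A4, which breaks down abscisic acid, stood at 29.8, 23.1 and 18.6 FPKM in the HS columns and at 1.93, 2.52 and 1.90 FPKM in the NS columns (3.47 ± 0.18, adjusted p = 1.9e-06), and ATGA2OX1, which inactivates gibberellins, stood at 0.994, 1.72 and 1.05 FPKM in the HS columns and at 9.42, 11 and 13.3 FPKM in the NS columns (-3.18 ± 0.22, adjusted p = 1.4e-05).

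Of 13 tested response regulators and oxidases of cytokinin 2 were up-regulated and 5 down-regulated, with 2 falls without WT_NS_1 and 3 without WT_NS_2. Among auxin genes the counts differed by family. Of 52 tested SAUR genes, short-lived regulators of cell expansion, 14 were up-regulated (26.9%, close to the 23.7% of all genes) and 1 down-regulated (1.92%), while their median was -0.02, and 5 were down-regulated without WT_HS_0. AT1G75580 of this family stood at 19, 16.8 and 13.2 FPKM in the HS columns and at 3.18, 3.36 and 3.19 FPKM in the NS columns (2.31 ± 0.15, adjusted p = 9.1e-06). Of 23 tested Aux/IAA repressors 9 were down-regulated and 3 up-regulated, with 1 rise without WT_NS_2 or WT_HS_2. Of 18 tested auxin transport genes 2 were up-regulated and 6 down-regulated, with 3 falls without WT_NS_1, WT_HS_1, or WT_NS_0 and WT_HS_2 together. Their falls also numbered 3 in a fit of the 6 WT columns alone. Of 10 GH3 genes, whose enzymes join auxin or jasmonate to amino acids, 2 were up-regulated and 2 down-regulated. Among the Aux/IAA falls was AXR3 at 43.4, 43.2 and 32 FPKM in the HS columns and 64.3, 86.9 and 104 FPKM in the NS columns (-1.09 ± 0.18, adjusted p = 0.0017).

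Defence genes gave calls that hung on single libraries. Of 19 tested pathogenesis-related and defence marker genes 6 were up-regulated and none down-regulated, with 14 up-regulated without WT_NS_0, 1 without WT_NS_1 or WT_NS_2, and 2 without WT_HS_1 or WT_HS_2. With WT_NS_0 and WT_HS_2 both left out the count was 13, and in a fit of the 6 WT columns alone it was 2. BGL2, a glucanase induced by salicylic acid, stood at 152, 454 and 1012 FPKM in the HS columns and at 446, 15.9 and 26.7 FPKM in the NS columns, and was not a DEG (adjusted p = 0.079). The kinase MPK3 stood at 76.9, 171 and 481 FPKM in the HS columns, against 91.9, 56.7 and 57.4 FPKM in the NS columns, and was not a DEG either (adjusted p = 0.056). Both genes overlapped between the groups through WT_NS_0. Without WT_NS_0 and WT_HS_2 the log2 fold change of BGL2 was 3.67 (adjusted p = 0.0022) and that of MPK3 was 1.01 (adjusted p = 0.032). The immune receptor gene AT1G66090, of the TIR-NBS class, did not overlap, with 104, 253 and 705 FPKM in the HS columns and 3.32, 1.38 and 1.47 FPKM in the NS columns (7.12 ± 0.63, adjusted p = 5.8e-05). Without WT_HS_2, and without WT_NS_0 and WT_HS_2 together, AT1G66090, CML37, TCH4, AGP1, JAZ1 and ACS6 were still up-regulated DEGs. Over all 95 tested NLR immune receptors 14 were up-regulated and 22 down-regulated, the rises numbering 5 without WT_NS_1 or WT_NS_2, 8 without WT_HS_1 and 9 without WT_HS_2. In a fit of the 6 WT columns alone the rises numbered 5.

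**Figure D4:**
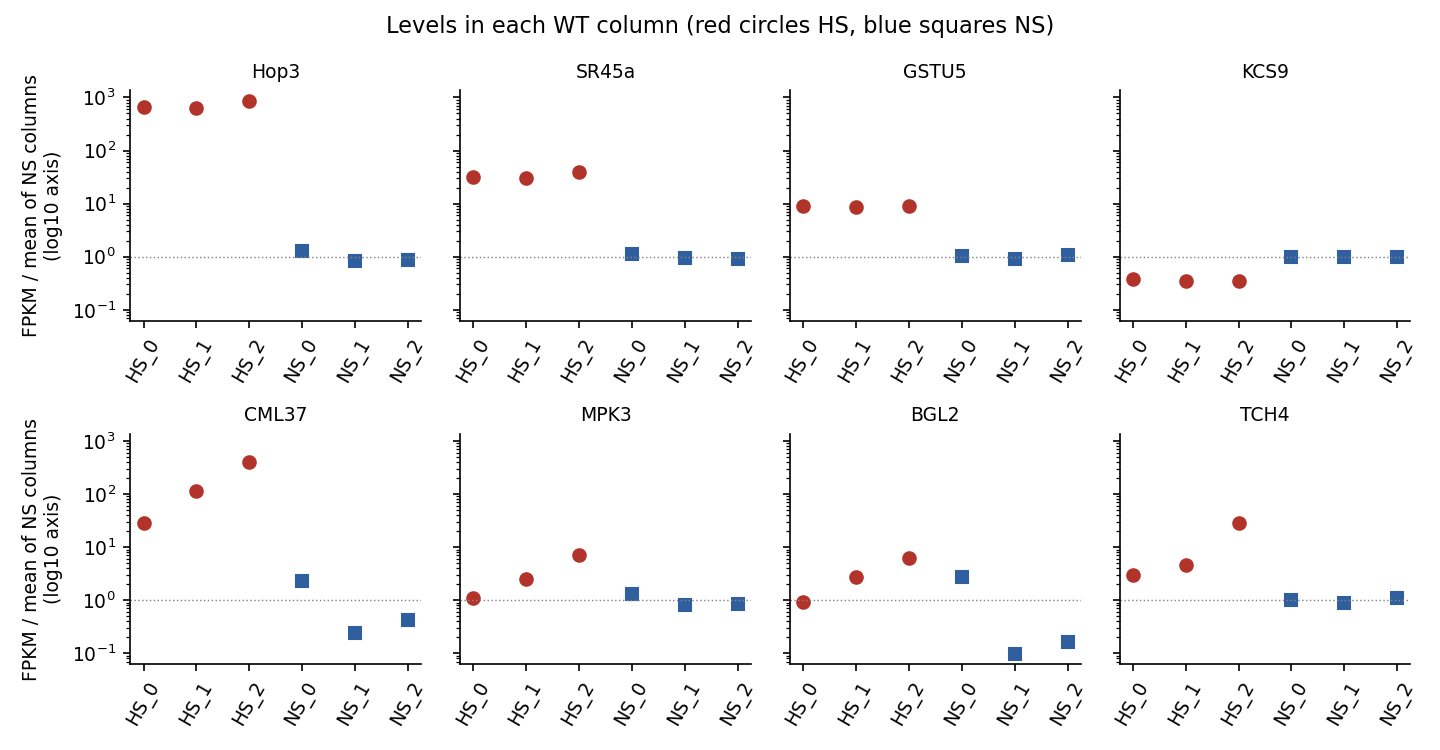
FPKM divided by the gene's mean over the 3 NS columns, on a log10 axis, in each of the 6 WT columns for 8 genes. Hop3, GSTU5, SR45a and KCS9 are level within each group, whereas CML37, MPK3, BGL2 and TCH4 differ between the HS columns and are highest in WT_HS_2. BGL2 is also high in WT_NS_0.

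Clock genes changed with small spread between columns. Of 19 tested clock genes 11 were up-regulated and 4 down-regulated, with a median of 0.70. The morning gene LHY stood at 5.22, 6.86 and 6.52 FPKM in the HS columns and at 62.3, 65.7 and 72.7 FPKM in the NS columns (-3.44 ± 0.12, adjusted p = 1.3e-07). Its close relative CCA1 stood at 166, 145 and 163 FPKM in the HS columns, against 96.6, 116 and 121 FPKM in the NS columns (0.51 ± 0.10, adjusted p = 0.0043), but was not called after quantile normalization (adjusted p = 0.4). EPR1 stood at 91.4, 78.2 and 66.1 FPKM in the HS columns and at 9.05, 11.5 and 10.9 FPKM in the NS columns (2.90 ± 0.14, adjusted p = 1e-06), though it shares a near-identical stretch with AT3G10113. GI, which acts in the evening, stood at 36.2, 29.1 and 35.4 FPKM in the HS columns and at 7.94, 7.95 and 8.72 FPKM in the NS columns (2.03 ± 0.10, adjusted p = 1.7e-06). The time of day of harvest is not given in the sources used here.

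Of 26 tested B-box zinc finger genes, many of which act in light signalling, 12 were up-regulated and 5 down-regulated (8 and 8 after quantile normalization), with 3 falls without WT_NS_2. LZF1 stood at 49.8, 52.5 and 70.1 FPKM in the HS columns and at 12.6, 13.6 and 14.5 FPKM in the NS columns (2.07 ± 0.13, adjusted p = 7.6e-06). Of 14 tested genes known from the cold response 6 were up-regulated and none down-regulated, but after quantile normalization 4 were up-regulated and 3 down-regulated. WT_HS_2 was the highest HS column in 13 of the 14. COR47, a dehydrin first known from cold, stood at 449, 429 and 889 FPKM in the HS columns, against 120, 101 and 117 FPKM in the NS columns (2.30 ± 0.26, adjusted p = 0.00026).

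Non-coding loci were mostly low. Of 202 tested loci annotated as long non-coding or other non-coding RNA 24 were up-regulated (11.9%) and 45 down-regulated (22.3%), and the rises numbered 13 without WT_NS_1. Of 16 tested microRNA loci 1 was up-regulated and 4 were down-regulated. The one that rose was MIR824, at 73.1, 74.6 and 129 FPKM in the HS columns and 2.06, 1.39 and 1.51 FPKM in the NS columns (5.76 ± 0.28, adjusted p = 1.2e-06), but an annotated gene on the opposite strand overlaps 67.8% of it. TAS3, the precursor of small RNAs against auxin response factors, stood at 18.8, 19.5 and 15.1 FPKM in the HS columns and at 36.7, 41.5 and 43.3 FPKM in the NS columns (-1.19 ± 0.13, adjusted p = 0.00019). The libraries measured long RNA, so these values do not give mature small RNAs.

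The actin genes ACT2 and ACT7, both in use as reference genes, moved in opposite directions. ACT2 stood at 246, 229 and 219 FPKM in the HS columns and at 311, 319 and 333 FPKM in the NS columns (-0.47 ± 0.10, adjusted p = 0.0066), and ACT7 stood at 694, 675 and 699 FPKM in the HS columns and at 359, 340 and 353 FPKM in the NS columns (0.97 ± 0.10, adjusted p = 0.00012). The groups did not overlap for either gene. PP2AA3, a phosphatase subunit, stood at 34.7, 37.9 and 36.4 FPKM in the HS columns and at 27.7, 28.1 and 28.4 FPKM in the NS columns (0.37 ± 0.08, adjusted p = 0.0049, and 0.11 after quantile normalization). The elongation factor gene AT5G60390 stood at 1473, 1355 and 1350 FPKM in the HS columns and at 1006, 1052 and 948 FPKM in the NS columns (0.47 ± 0.14, adjusted p = 0.027), but its log2 fold change was -0.34 after quantile normalization, and without single columns its adjusted p ranged over 0.049 to 0.086. GAPC2, of glycolysis, stood at 868, 875 and 724 FPKM in the HS columns and at 1093, 1185 and 1166 FPKM in the NS columns (-0.49 ± 0.14, adjusted p = 0.025), with an adjusted p of 0.078 without WT_NS_1, 0.07 without WT_NS_2 and 0.078 without WT_HS_2.

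Gene structure was compared between classes of change. Among 409 genes with a log2 fold change of at least 3, 35.7% of the protein-coding ones had a single exon, against 14.5% of all tested genes, and the median transcript length was 1339 bases, against 1743 bases. Genes that fell by at least 2 on the log2 scale were also short, with a single exon in 32.2% and a median of 1421.5 bases over 90 protein-coding genes, and over all up-regulated genes the share with a single exon was 13.3%, close to that of all tested genes. In the windows printed above for 4 genes, the 2-unit HSE, searched on both strands as GAANNTTC or TTCNNGAA, occurred in 40.3% of these 409 genes, 23.2% of all up-regulated, 16.8% of down-regulated and 18.3% of uncalled genes. The 3-unit HSE occurred in 6.85% of the 409 genes and in 0.585% of all tested genes, and in 5.69% once heat shock protein and heat shock factor genes were left out. It contains the 2-unit HSE, so these shares are not separate counts.

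Other motifs were each searched on both strands. The G-box CACGTG occurred in 12.7% of up-regulated, 7.09% of down-regulated and 9.12% of all tested genes, and in 16.4% of the genes with a log2 fold change of at least 3. The CGCG box, searched as ACGCGT and found in promoters bound by calmodulin-binding transcription activators, occurred in 4.02% of up-regulated, 1.06% of down-regulated and 2.03% of uncalled genes. Its share was 5.38% in the genes with a log2 fold change of at least 3. The site II element TGGGCC, common before genes of translation and mitochondria, occurred in 24.2% of up-regulated, 13.9% of down-regulated and 19.9% of all tested genes, but in 17.4% of the genes with a log2 fold change of at least 3. The TATA element TATAAA occurred in 51.4% of up-regulated, 51.9% of down-regulated and 50.1% of uncalled genes. It occurred in 56.0% of the genes with a log2 fold change of at least 3 and in 59.2% of 98 genes that fell by at least 2. These are shares of windows with a match, and no match says only that these letters were not in the window.

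**Figure D5:**
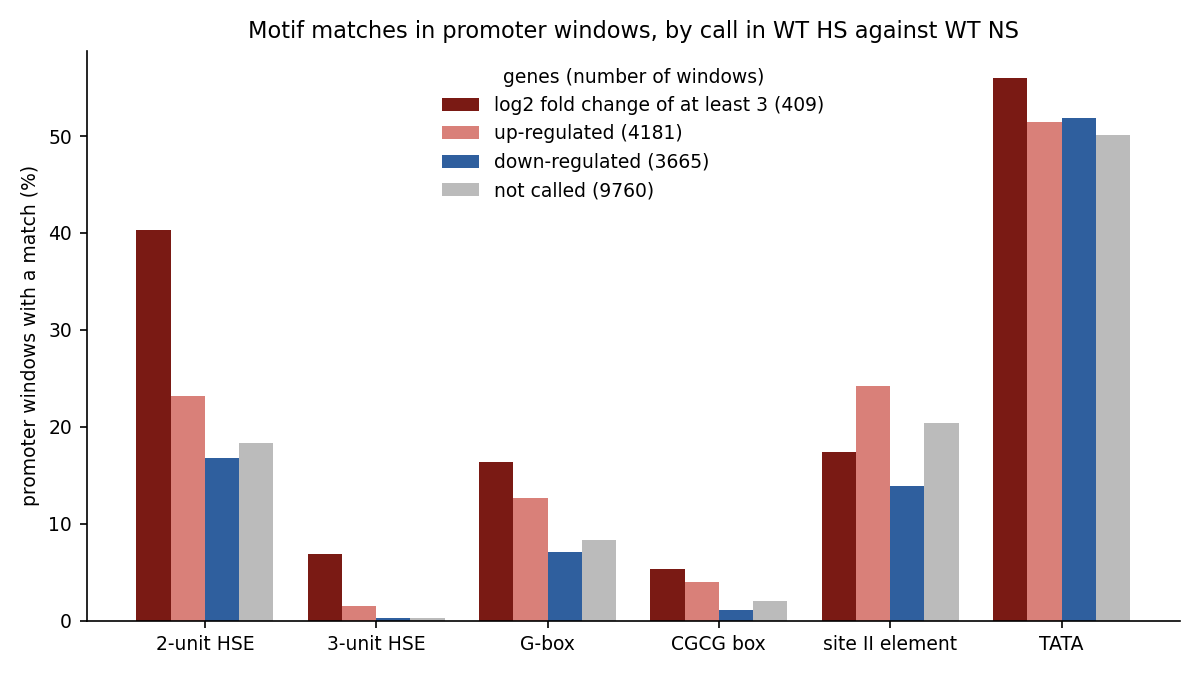
Percent of 300-base promoter windows that hold each of 6 motifs, for genes with a log2 fold change of at least 3, all up-regulated, all down-regulated and uncalled genes. The first class lies within the second. The 2-unit HSE stands at 40.3% in the first class and at 16.8% to 23.2% in the others. The TATA element is at 56.0% in the first class, 51.4% in up-regulated, 51.9% in down-regulated and 50.1% in uncalled genes.

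The same lists are set beside 35S:HSFA1b plants, in which 22.6% of genes were up-regulated and 19.7% down-regulated by HS. The median of the ER folding list was 2.15 in WT and 0.73 in 35S:HSFA1b plants, and 10 of its 27 genes had a log2 fold change that differed between the genotypes, against 11.9% (2112 of 17720) of all genes. That overall count was 3387 without WT_HS_0, 1199 without WT_NS_1 and 1262 without WT_NS_2. The medians were 0.45 and 0.25 for proteasome subunits, with 1 gene differing, and -1.40 and -1.90 for flavonoid synthesis, with 2 genes differing. Of 29 cellulose synthase genes none differed. Clock genes differed in 9 of 19 and B-box genes in 12 of 26. By their submission numbers, the 6 WT libraries went together and 5 of the 6 libraries of 35S:HSFA1b plants went apart from them. Whether these numbers mark a batch of sequencing is not given. A difference between genotypes in these changes can lie in the NS level or in the HS level. Genotype and submission cannot be told apart here.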

How the data were processed

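RNA was sequenced from leaves of 12 libraries, 3 for each of WT HS, WT NS, 35S:HSFA1b HS and 35S:HSFA1b NS plants, as 50 bp paired-end reads. Per the labels and the study's methods, the authors mapped the reads to the TAIR10 transcriptome with GSNAP and computed FPKM with Cufflinks and Cuffdiff with geometric library normalization (versions not given in the sources used here), and deposited 1 FPKM value per locus and column. Counts were not used here, so no depth of a single library and no counting interval can be given. The study's methods state only a minimum read depth per library. Strand-specific counting is not given in the sources used here.

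Values were taken as log2(FPKM + 0.01) for loci averaging at least 1 FPKM and fitted with limma 3.58.1 in R 4.3.3 (eBayes with trend) to the 9 columns of WT HS, WT NS and 35S NS, the groups of the study's own expression analysis. The threshold was an adjusted p of 0.05 (Benjamini-Hochberg), and an exact permutation test of 3 against 3 libraries cannot go below 0.1. The HS response of both genotypes was compared by an interaction term over all 12 columns. The procedure was also run on simulated columns with independent noise and few changed genes. These data differ from that setting, so the run gives no error rate for them. Groups came from the sample titles, and the digits in the column names were not tied to single libraries.

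Gene lists were built from symbols and annotated products. The members and lists were chosen with earlier results of these data known, and 3 lists (pentatricopeptide, ribosomal and tetrapyrrole) were corrected by name after values had been seen. The rule for named genes took, per list, up to 3 DEGs in each direction with the largest change, no overlap and at least 10 FPKM in the higher group, up to 2 of the highest members, and 5 reference genes. Genes listed at 0 in all NS columns were given no fold.

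Of the tested loci, 17607 matched the RefSeq annotation of TAIR10.1, from which promoters (250 bases before to 50 after the start), exon counts and overlaps were taken, and near-identical transcripts (at least 95% identity over 100 bases) were found with BLAST+ 2.17.0. Alternatives were other pseudocounts, filters, scalings, sets of columns and thresholds, a replicate block, and leaving out single columns. Leaving out WT_NS_0 and WT_HS_2 together was chosen after seeing the data.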

Additional observations from a re-analysis of the deposited data

Results flagged for a closer look

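The HS response differed between WT and 35S:HSFA1b plants for 2112 of 17720 genes by the interaction term in limma (adjusted p of at most 0.05). Of the 84 genes with values in the text above, 46 were among them. Many of the 84 were named for a large change in the same WT columns, which favours such a difference. Their share can therefore not be compared with that of all genes. Hop3 had a log2 fold change of 9.50 in WT and 2.00 in 35S:HSFA1b plants, a difference of 7.50 (adjusted p = 2e-08). SR45a had 5.07 in WT and 2.10 in 35S:HSFA1b plants, a difference of 2.97 (adjusted p = 9.7e-07). The clock gene EPR1 had 2.90 in WT and 0.61 in 35S:HSFA1b plants, a difference of 2.29 (adjusted p = 1.1e-05). The aquaporin GAMMA-TIP had 1.73 in WT and 0.38 in 35S:HSFA1b plants, a difference of 1.35 (adjusted p = 0.011), and ACT7 had 0.97 in WT and 0.26 in 35S:HSFA1b plants, a difference of 0.71 (adjusted p = 0.0047). TCH4 had 2.88 in WT and -1.59 in 35S:HSFA1b plants, a difference of 4.46 (adjusted p = 0.0097). A difference of fold changes does not tell whether the NS or the HS level differed between genotypes, and which one did was not tested. Heat shock protein and heat shock factor genes made up 0.594% to 0.728% of the summed FPKM in WT NS columns. Their share was 1.84% to 1.91% in 35S NS columns. In HS columns it was 10.8% to 13.8% in WT and 6.5% to 7.06% in 35S:HSFA1b plants. Genotype and submission cannot be told apart in these differences.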

How the results depend on the processing

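The count of DEGs stayed within 1.5 times of 7876 under other pseudocounts, filters, scalings, sets of columns and the fit without trend, with 5877 to 8021 DEGs when single WT columns were left out (3103 to 4189 up-regulated, 2662 to 3832 down-regulated). Stricter thresholds gave smaller counts by construction. At an adjusted p of at most 0.01 there were 4685 DEGs (2533 up-regulated, 2152 down-regulated) and 740 genes with a different response between genotypes. With a log2 fold change of at least 1 in size as well there were 2586 (1568 up-regulated, 1018 down-regulated) and 1183. The count of different responses was 1199 to 3387 when single WT columns were left out, and the cause was not tested. Of 116 counts for 58 gene lists, 34 moved by more than 1.5 times under quantile normalization, 33 without WT_NS_2 and 25 without WT_NS_1. Of 79 named DEGs, 74 kept their call in every setting apart from the stricter thresholds, and AT5G60390 reversed under quantile normalization (-0.34). With the digit of the column name as a replicate block there were 6537 DEGs (3481 up-regulated, 3056 down-regulated) and 1470 different responses. The deviations of same-digit columns correlated at -0.39, 0.02 and -0.22, which gave no sign that the digits pair the samples. The highest correlation of any pair was 0.37, between WT_HS_2 and WT_NS_0, and whether these columns belong together was not tested. Without counts, the depth behind low FPKM values stays unknown.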
